A study of Homo sapiens with 4 samples.

Results

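Transcript levels of 10 integrin subunit genes were compared in GBM8401, a line of human glioma cells, and in its temozolomide-resistant derivative. The members were taken by name from a table of 58219 gene IDs: the alpha subunit genes ITGA2, ITGA3, ITGA4, ITGA5, ITGA6 and ITGAV and the beta subunit genes ITGB1, ITGB3, ITGB5 and ITGB8. Each was matched through its Ensembl ID to a single row, and all 10 passed the filter on low values described under the processing. Temozolomide (TMZ) is an alkylating drug given against glioblastoma. The parental group held 2 libraries of GBM8401 cells grown in RPMI1640 with fetal bovine serum. The resistant group held 2 libraries of GBM8401 cells kept in medium with 200 µM TMZ for 140 days. The labels call the replicates biological, describe no independently derived resistant lines, and do not say whether the drug was present at harvest, so p-values measure the spread between these cultures and not between independently derived lines.

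Integrins are receptors of the cell surface made of an alpha and a beta chain. The pair decides which matrix protein or counter-receptor is bound, and the beta tail recruits talin and kindlin, which link the receptor to actin and to kinases at focal adhesions. ITGB1 pairs with many alpha chains, including those of ITGA2 (collagen), ITGA3 and ITGA6 (laminins), ITGA4 (fibronectin and VCAM1) and ITGA5 (fibronectin). ITGAV pairs with ITGB3, ITGB5 or ITGB8 for ligands such as vitronectin, osteopontin or the latent form of transforming growth factor beta, and ITGA6 can pair with ITGB4 in place of ITGB1. In glioma, integrins are studied for adhesion and for invasion along vessels and matrix.

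In resistant cells ITGA4 and ITGA6 were lower and ITGB3 was higher, while ITGB1, the shared beta chain, differed by a small amount. ITGA4 was 2.35-fold and ITGA6 1.59-fold lower, ITGB3 was 2.89-fold higher, and ITGB1 was 1.16-fold lower. In bulk RNA, fewer cells of a type and less RNA per cell cannot be told apart. These were the members that passed the test of group means (limma on log2(value + 1), Benjamini-Hochberg adjusted p under 0.05 over 16132 genes): 4 of the 10, where 37.1% of all genes tested were called. Of the 4, 1 was higher, where 16.2% of all genes were called higher, and 3 were lower, where 20.9% were called lower, so the share of members called was near the background. Of all called genes 43.7% were higher in resistant cells, and 57.1% were when libraries were scaled by their totals alone. The median log2 fold change of the 10 members was −0.19, against −0.02 over all genes tested. In 5 members both resistant libraries lay below both parental ones, in 1 they lay above, and in 4 the groups overlapped. Among all genes tested the groups did not overlap in 68.6%, with the resistant libraries below in 36.4% and above in 32.2%.

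**Figure D1:**
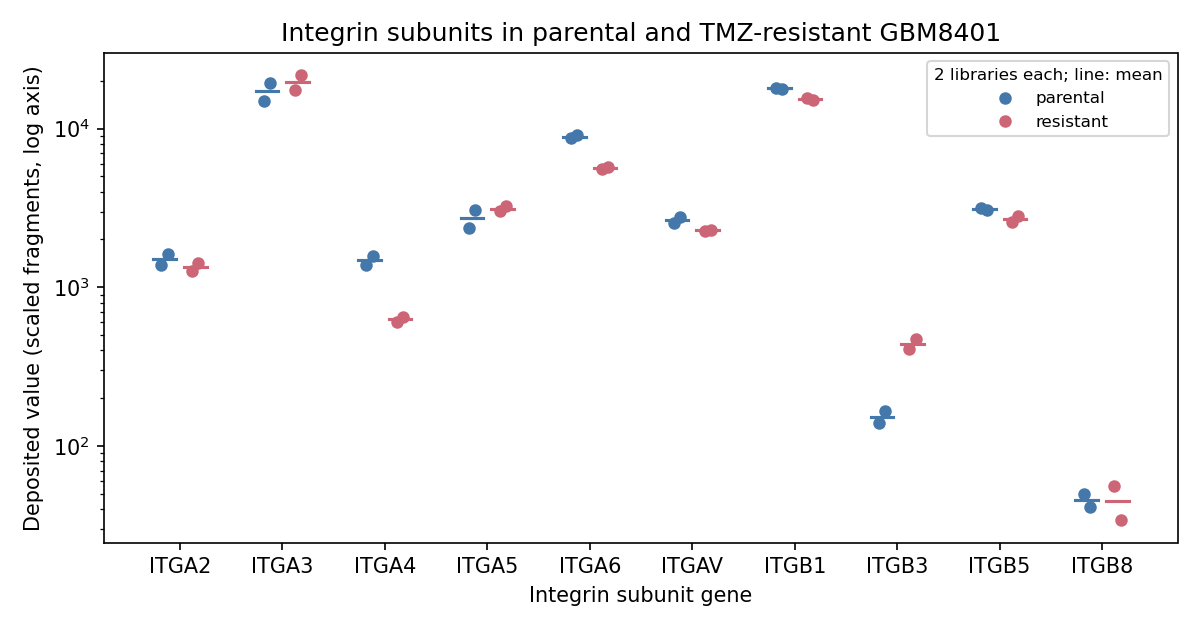
Deposited value (scaled fragments, log axis) of the 10 integrin subunit genes in 2 parental and 2 TMZ-resistant GBM8401 libraries, with a line at the mean of each group. The groups stand apart most clearly for ITGA4 and ITGA6, lower in resistant cells, and for ITGB3, higher.

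Library depth was similar, with deposited totals of 24791254 and 25832511 (parental) and 23163310 and 24225039 (resistant) scaled fragments. Both resistant totals were thus below both parental ones. With library totals alone as the scaling, the median log2 fold change was −0.09 for the 10 members and 0.07 over all genes tested. ITGB1, ITGAV and ITGB5 were then at −0.12, −0.12 and −0.11. Low values in a library clustered at multiples of 1 step (0.753 to 0.956 per fragment), which translates the totals to 27019137 to 30759939 fragments. Replicates correlated at a Pearson r of 0.989 and 0.991 across genes, and libraries of different groups at 0.965 to 0.971. These correlations describe the libraries, since genes are not independent replicates. Of 15 glial and glioma line markers, 9 passed the filter. Among the 9, 4 were called lower (44.4%) and 1 higher (11.1%), against 20.9% and 16.2% of all genes tested. Those lower were NES, SOX9, VIM and CD44, with log2 fold changes of −1.06, −0.70, −0.61 and −0.47, and SLC1A3 was higher by 0.48. VIM, which encodes the filament protein vimentin, held 47407 to 81177, and EGFR, a receptor often amplified in glioblastoma, 10605.5 to 12445. Of the astrocyte markers, GFAP and AQP4 were at 2.87 or less and 1.63 or less, whereas SLC1A3, a glutamate transporter, held 2853 to 4312 and SOX9, a glial transcription factor, 898 to 1671. Of the remaining glial markers, S100B, BCAN, PTPRZ1 and SOX2 were at 4.25, 0.753, 6.78 and 10.5 or less. FABP7 held 8.60 to 21.2, CHI3L1 31.4 to 59.4 and OLIG2 183 to 237. Among all genes tested, 22.4% were higher in replicate 1 than in replicate 2 of both groups. For the fibroblast markers this was so in 8 of 10, and their summed level was 17870.2 and 14217 (parental) and 16635 and 14055 (resistant). Of 9 endothelial markers 8 were tested, with 3 called lower (37.5%, against 20.9% of all genes tested). The summed level of the 9 was 1468 and 1662 (parental) and 1039 and 922 (resistant). TIE1, an endothelial receptor kinase, fell from 220 and 267 to 24.1 and 11.9 and CDH5, the cadherin of vessel walls, from 286 and 404 to 158 and 120, while the call of TEK was lost without parental replicate 2 (limma, adjusted p = 0.186), resistant replicate 1 (0.129) or resistant replicate 2 (0.179), with library totals alone (0.0700) and without trend and robust moderation (0.117). The markers not called summed to 433 and 345 (parental) and 402 and 352 (resistant). These were picked by their lack of a call, so their sum could not show a change. The part of endothelial markers in the integrin falls was not tested.

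ITGB1 encodes the beta chain shared by most members here and had the highest level per length of the 10. Its deposited value was 18079.8 and 17763 (parental) and 15616 and 15160.3 (resistant). Both resistant libraries were lower, by a margin that was small beside that of ITGA4 or ITGA6. The means were 17921 ± 224 and 15388 ± 323 (SD, n = 2), giving −0.22 ± 0.07 on the log2 scale (SE; limma, adjusted p = 0.0292). The call did not hold when libraries were scaled by their total alone (adjusted p = 0.195) or by TMM factors (0.0683), without trend and robust moderation (0.146), nor when any 1 library was left out (0.0736 to 0.147). ITGB1 (ENSG00000150093) spans chromosome 10, 32900319 to 33005792, on the minus strand (GENCODE positions on GRCh38, as for all genes here). A processed pseudogene copy on chromosome 19, ITGB1P1, carried 1169, 1005, 973 and 861 in the same order of libraries, and fragments may have been divided between them with error. The sum of both was 19249 and 18768 (parental) and 16589 and 16022 (resistant), so the groups were apart in the sum as well.

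Of the laminin receptor chains, ITGA6 fell and ITGA3 did not pass. ITGA6 (ENSG00000091409, chromosome 2, 172427354 to 172506282, plus strand) had values of 8747 and 9066 (parental) and 5524 and 5709.65 (resistant). The groups were far apart and the replicates of each group close together. The means were 8907 ± 225 and 5617 ± 131 (SD, n = 2), giving −0.66 ± 0.07 on the log2 scale (SE; limma, adjusted p = 3.11e-04). An antisense gene within it, AC078883.1, held 32.3 to 103, and with the strand setting of the counting not given in the sources used here, fragments of the pair cannot be told apart. ITGA3, the chain of the main laminin receptor with ITGB1, had values of 15024 and 19449 (parental) and 17617 and 21675 (resistant). The groups overlapped, with a log2 fold change of 0.19 and a 95% confidence interval of −0.16 to 0.55 (adjusted p = 0.358). Without parental replicate 2 the value was 0.38 and passed (adjusted p = 0.0437), and without parental replicate 1 it was 0.01 (adjusted p = 0.974).

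ITGA4 and ITGA5 encode chains for fibronectin, and ITGA4 also binds VCAM1. ITGA4 (ENSG00000115232, chromosome 2, 181457202 to 181536187, plus strand) had values of 1379.7 and 1583 (parental) and 603 and 654 (resistant). Every resistant value was under the lower parental one by a wide margin. The means were 1481 ± 144 and 629 ± 35.9 (SD, n = 2), giving −1.23 ± 0.10 on the log2 scale (SE; limma, adjusted p = 1.38e-04). ITGA5 had values of 2379 and 3069 (parental) and 3023 and 3229 (resistant). One parental library was below the other 3 and the second lay between the resistant ones, with a log2 fold change of 0.21 and a 95% interval of −0.07 to 0.49 (adjusted p = 0.214). Scaling by library totals alone gave 0.30 with an adjusted p of 0.0358 for ITGA5, and leaving out parental replicate 2 gave 0.39 (0.0149).

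The 250 bases before the RefSeq start are shown for ITGA6 and ITGB1, members called lower whose windows lie outside the annotated exons or touch them by a few bases, as the sequence in which the motifs were sought. They come from RefSeq promoter entries on GRCh38.p14, matched by symbol for 8 of the 10 members. ITGA3 and ITGB3 had no entry. Where a gene had several RefSeq starts, the most upstream of these was taken. The ITGB1 window lies inside the GENCODE span of the gene, which on the minus strand begins at 33005792, and so not before that start. The window of ITGA4 runs to 181457385, past the GENCODE start of ITGA4 itself at 181457202, and is not printed. The windows are chr2:172427086-172427335 (plus strand) for ITGA6 and chr10:32958231-32958480 (minus strand) for ITGB1. They are written 5′ to 3′, and capitals mark matches on either strand to the GC box GGGCGG, the AP-1 motif TGANTCA or the TEAD motif GGAATG.
ITGA6: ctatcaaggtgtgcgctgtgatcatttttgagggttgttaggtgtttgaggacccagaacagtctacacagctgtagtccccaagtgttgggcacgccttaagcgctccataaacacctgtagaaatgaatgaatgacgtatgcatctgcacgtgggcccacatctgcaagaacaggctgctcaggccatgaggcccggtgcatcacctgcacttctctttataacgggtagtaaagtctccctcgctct
ITGB1: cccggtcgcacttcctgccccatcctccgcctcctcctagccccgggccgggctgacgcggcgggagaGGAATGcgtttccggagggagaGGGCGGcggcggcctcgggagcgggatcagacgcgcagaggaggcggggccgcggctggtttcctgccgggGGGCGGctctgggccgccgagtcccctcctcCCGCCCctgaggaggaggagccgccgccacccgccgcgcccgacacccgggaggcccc

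The ITGA4 and ITGA6 windows held none of the 3 motifs, and the ITGB1 window held 3 GC boxes and 1 TEAD motif. Over all 35116 windows of this length in the table, 42.6% held a GC box, 6.57% an AP-1 motif and 11.9% a TEAD motif. Of the other members with an entry, ITGA2 had 4 GC boxes, ITGB5 and ITGB8 had 2 each, ITGA5 had 1 GC box and 1 TEAD motif, and ITGAV had none of the 3 motifs. A match or its lack describes these letters in this window, and binding was not measured here.

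The collagen receptor chain ITGA2 did not pass. Its values were 1387 and 1623 (parental) and 1271 and 1415 (resistant). The upper resistant library lay between the parental ones, with a log2 fold change of −0.16 and a 95% interval of −0.40 to 0.08 (limma, adjusted p = 0.265).

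ITGAV and ITGB5, which pair with each other, did not pass. ITGAV, the alpha chain of the vitronectin receptors, had values of 2535 and 2758 (parental) and 2262 and 2306 (resistant), without overlap. Its log2 fold change of −0.21 (95% interval −0.40 to −0.03) did not pass after adjustment (limma, adjusted p = 0.0713). ITGB5, a beta chain for vitronectin, had values of 3162 and 3069.98 (parental) and 2574 and 2817 (resistant), also without overlap. The log2 fold change was −0.21 (95% interval −0.39 to −0.03, adjusted p = 0.0721). Neither passed with any of the other scalings, filters or pseudocounts or with a library left out.

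ITGB3 was the member that rose. It encodes the beta chain that joins ITGAV in the vitronectin receptor and ITGA2B in the fibrinogen receptor of platelets. Its values were 139 and 165 (parental) and 408 and 475 (resistant). The lowest resistant library was well above the highest parental one. The means were 152 ± 18.2 and 441 ± 47.3 (SD, n = 2), giving 1.53 ± 0.15 on the log2 scale (SE; limma, adjusted p = 2.62e-04). ITGB3 (ENSG00000259207, chromosome 17, 47253846 to 47311816, plus strand) overlaps the same-strand gene AC068234.1, which held 30.5 and 0.345 (parental) and 35.1 and 0 (resistant). The sums of both genes, 169.9 and 165 against 443 and 475, kept the groups apart.

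ITGB8, the chain of the receptor that releases active transforming growth factor beta from its latent form, was the lowest member. Its values were 49.6 and 41.1 (parental) and 55.7 and 34.0 (resistant). The groups overlapped, and the log2 fold change of −0.05 had a wide 95% interval of −0.76 to 0.65 (limma, adjusted p = 0.913), so changes within this interval in either direction could not be told from none. Replicate 1 was higher than replicate 2 in both groups, as in ITGB1, in 8 of 10 fibroblast markers and in 22.4% of all genes tested. The part of other cells' RNA in this low value was not tested.

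**Figure D2:**
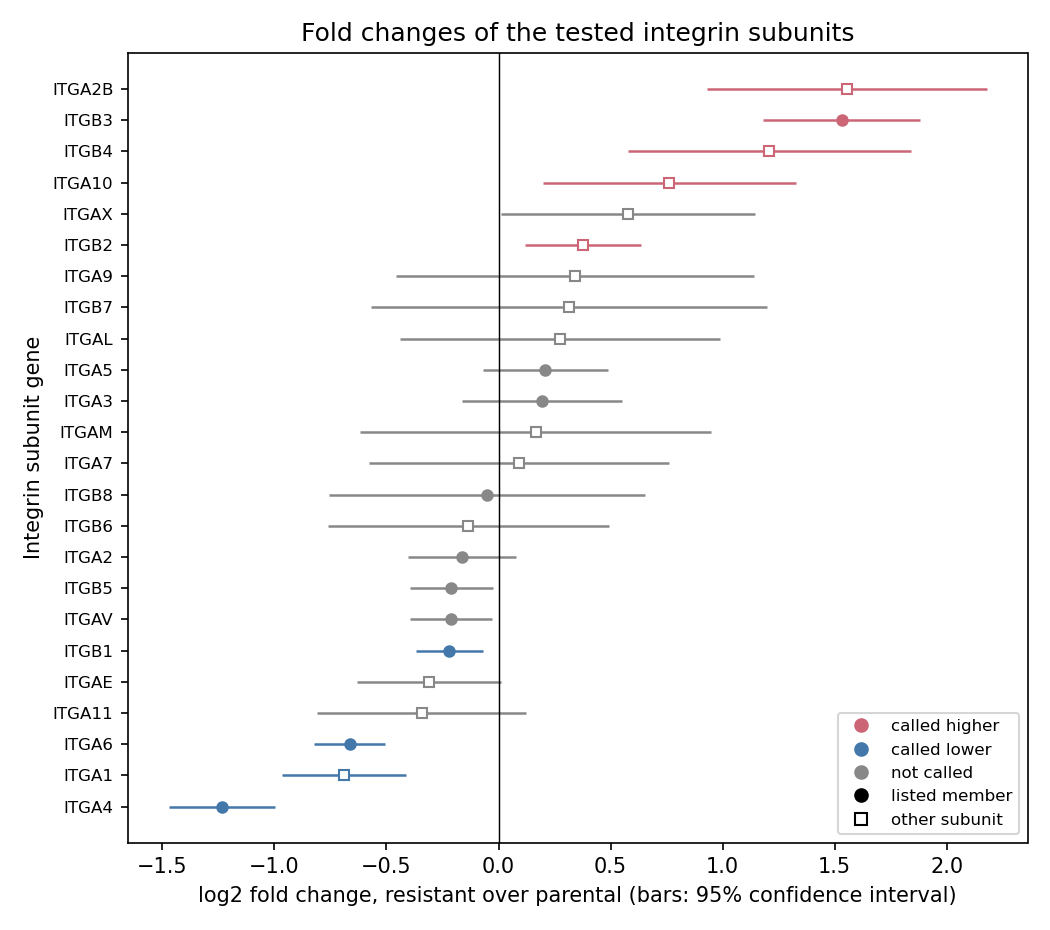
Log2 fold change of resistant over parental cells for the 24 integrin subunit genes that passed the filter, with bars for the 95% confidence interval before adjustment. Filled circles are the listed members and open squares the other subunits. ITGA4 lies lowest at −1.23, and ITGA2B and ITGB3 lie highest at 1.55 and 1.53.

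Levels can be compared between genes only per length, here as scaled fragments per kb of the union of annotated exons. In parental cells the level per kb was 2981 ± 37.3 for ITGB1, 1758 ± 319 for ITGA3, 1363 ± 34.4 for ITGA6 and 483 ± 10.1 for ITGB5 (SD, n = 2). Then came ITGA5 at 359.5 ± 64.4 and ITGAV at 322 ± 19.2, whose libraries overlapped, and ITGA2 at 190.3 ± 21.1 and ITGA4 at 187.5 ± 18.2, which overlapped as well. ITGB3 at 34.6 ± 4.14 and ITGB8 at 2.99 ± 0.397 closed the order. The other neighbours were apart in both libraries. In resistant cells the level per kb was 2560.03 ± 53.7 for ITGB1, 2004 ± 293 for ITGA3, 859.8 ± 20.1 for ITGA6, 418 ± 26.7 for ITGB5 and 413 ± 19.2 for ITGA5, the last pair overlapping. ITGAV at 278 ± 3.76 and ITGA2 at 169.8 ± 12.9 followed. ITGB3 at 100.4 ± 10.8 now stood above ITGA4 at 79.6 ± 4.54, and ITGB8 was again last at 2.96 ± 1.01. The order of the low members depends on the length used. Per kb of the longest transcript, ITGA4 at 354 stood above ITGA2 at 191 in parental cells. In resistant cells ITGA4 at 150.1 stayed above ITGB3 at 110.5, and the libraries of ITGA5 at 626 and ITGB5 at 617 again overlapped.

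Of the 16 human integrin subunit genes outside the list, 14 passed the filter. ITGA8 and ITGAD did not, with values of at most 8.13 and 2.26. Among the 14, 4 were called higher (28.6%) and 1 lower (7.14%), against 16.2% and 20.9% of all genes tested. Their median log2 fold change was 0.29. ITGB4, which pairs with ITGA6 in the laminin receptor of hemidesmosomes, had values of 9632 and 14743 (parental) and 24342 and 31169.9 (resistant). Every resistant library was above both parental ones, although the replicates within a group also lay far apart. The log2 fold change was 1.21 ± 0.24 (SE; limma, adjusted p = 0.0182), and the call was lost without resistant replicate 1 (adjusted p = 0.0788) or resistant replicate 2 (0.149), with no filter on low values (0.181) and without trend and robust moderation (0.0510). Its partner chain ITGA6 fell, as given above. ITGB4 is also on the list of epithelial markers, where the keratin genes KRT8 and KRT18 were called higher too. EPCAM, an epithelial adhesion molecule, held 83.2 to 167 and CDH1, which encodes E-cadherin, 297 to 503, both with overlapping groups, and EPCAM passed as higher without parental replicate 1 (0.82 on the log2 scale, adjusted p = 0.0280) and was −0.13 without parental replicate 2. The summed level of the 10 epithelial markers was 28757 and 35623 (parental) and 59978 and 68394 (resistant), nearly all of it KRT8, KRT18 and ITGB4 itself. The 7 markers that were not called summed to 2280.2 and 1546 (parental) and 2276 and 1691 (resistant). They were picked by their lack of a call in this same comparison, so their sum cannot show whether other cells changed. CLDN4, a claudin of epithelial junctions, held 277 and 218.0 (parental) and 217.6 and 180 (resistant). Parental replicate 2 and resistant replicate 1 were nearly equal, and the log2 fold change was −0.31 (limma, adjusted p = 0.200). The part of other cells in the rise of ITGB4 was not tested.

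ITGB2, the beta chain of leukocyte integrins, had values of 2509 and 3062 (parental) and 3374 and 3836 (resistant). The groups did not overlap, and the log2 fold change was 0.38 ± 0.11 (SE; limma, adjusted p = 0.0318). The call was lost without parental replicate 1 (adjusted p = 0.133) or resistant replicate 2 (0.169), and without trend and robust moderation (0.149). An antisense gene, ITGB2-AS1, held 108 to 219. The leukocyte marker PTPRC held 62.1 to 92.7 with overlapping groups, AIF1 and PF4 were listed at 0 in every library, and CD68, a lysosomal protein of macrophages, rose from 520.2 and 500.4 to 887 and 966, by 0.86 (adjusted p = 5.10e-04). Of the alpha partners, ITGAL and ITGAM held at most 30.1 and 25.2, and ITGAX held 100.9 and 141.5 (parental) and 147 and 217 (resistant), without overlap. The summed level of the 13 hematopoietic and platelet markers, most of it ITGB2 itself, was 3363 and 3825 (parental) and 4644 and 5119 (resistant). Without its 4 integrin genes it was 785 and 694 against 1144 and 1159. Without CD68 as well it was 265 and 194 against 258 and 193. Only markers without a call remain in that last sum, so it could not show a change. The part of such cells in the rise of ITGB2 was not tested.

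Among the remaining alpha chains, ITGA2B, the partner of ITGB3 in platelets, rose from 21.2 and 28.7 to 72.3 and 76.4, a log2 fold change of 1.55 ± 0.27 (SE; limma, adjusted p = 3.02e-03). Both members of that pair therefore had higher libraries in the resistant group, with ITGA2B at 13.4 ± 0.528 per kb of exon (SD, n = 2) in resistant cells. The collagen receptor chain ITGA10 rose from 48.0 and 58.3 to 77.6 and 105, by 0.76 ± 0.25 (adjusted p = 0.0407). This call was lost without parental replicate 1 (adjusted p = 0.121), resistant replicate 1 (0.0595) or resistant replicate 2 (0.293), and without trend and robust moderation (0.0713). ITGA1, a further collagen receptor chain, fell from 733 and 881 to 518 and 478, by 0.69 on the log2 scale (adjusted p = 3.00e-03). It holds PELO on the same strand, with 1121 to 1526, and fragments of the 2 genes may be divided with error. The other 9 subunits did not pass: ITGAX, ITGA9, ITGB7, ITGAL, ITGAM and ITGA7 had log2 fold changes of 0.09 to 0.58, and ITGB6, ITGAE and ITGA11 of −0.13 to −0.34. ITGAX passed with library totals alone (0.62, adjusted p = 0.0343) and without parental replicate 2 (0.82, 0.0377), and its value was 0.33 without parental replicate 1 and 0.30 without resistant replicate 2.

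As a share of the summed level per kb of all 8 beta chains, ITGB1 made up 56.2% and 48.3% (parental) and 36.0% and 30.5% (resistant). ITGB4 made up 26.6% and 35.6% (parental) and 49.9% and 55.8% (resistant). ITGB1 had the larger share in both parental libraries and ITGB4 in both resistant ones. Shares of ITGB5 were 9.16% and 7.78% against 5.53% and 5.29%, those of ITGB3 0.593% and 0.614% against 1.29% and 1.31%, and those of ITGB2 6.83% to 7.36% in every library. With the longest transcript as the length, ITGB1 had 61.9% and 54.6% (parental) and 42.7% and 36.9% (resistant), and ITGB4 had 42.5% and 48.5% in the resistant ones, so in resistant replicate 1 ITGB4 was then no longer ahead. In the pool of 18 alpha chains, ITGA3 made up 38.5% and 42.5% (parental) and 48.7% and 52.6% (resistant). ITGA6 made up 33.7% and 29.7% against 22.9% and 20.8%, and ITGA4 4.39% and 4.29% against 2.07% and 1.97%. Shares within a pool are tied to each other and are given as a description, with no test.

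**Figure D3:**
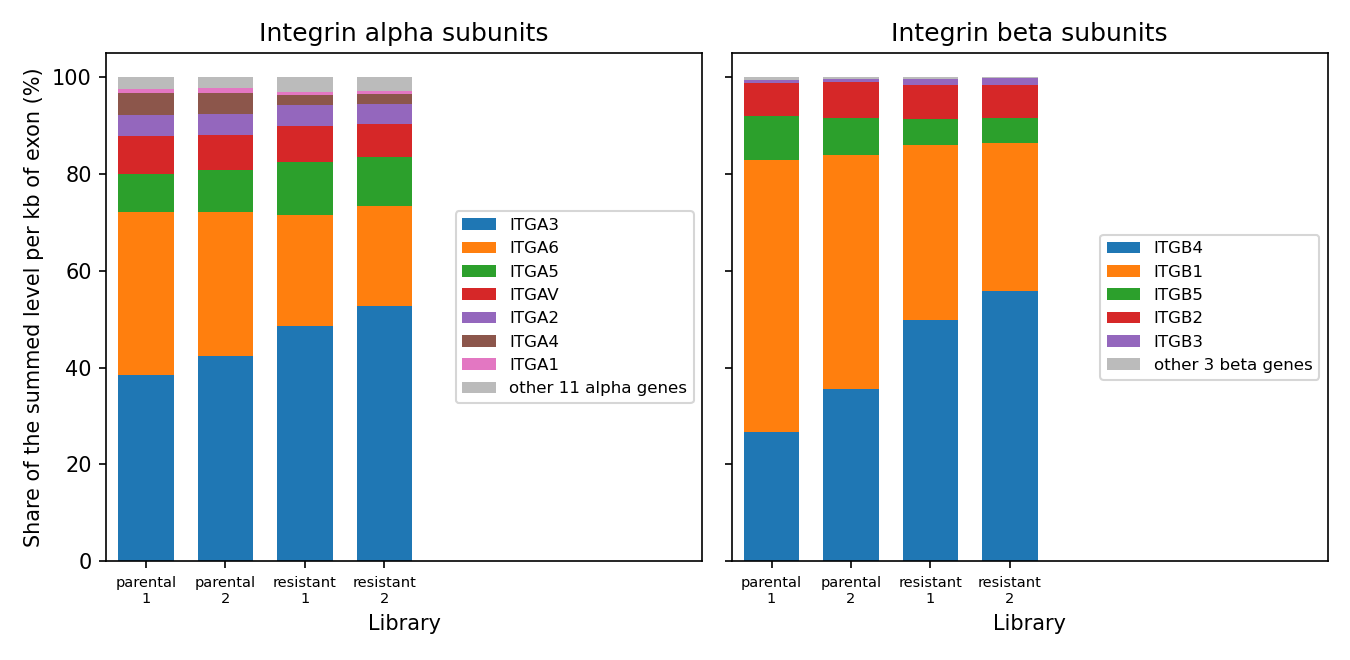
Share (%) of each integrin gene in the summed level per kb of exon of the 18 alpha genes and of the 8 beta genes, in each of the 4 libraries. In the beta pool ITGB1 is the largest share in both parental libraries and ITGB4 in both resistant ones, which for resistant replicate 1 does not hold per kb of the longest transcript.

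Neighbouring genes of the members were looked at for shifts of whole regions. ITGA4, ITGA6 and ITGAV lie on the long arm of chromosome 2. Coding genes tested within 5 Mb of ITGA6 had a median log2 fold change of −0.17, with 3 called higher and 20 lower of 47. Around ITGA4 the median was −0.23, with 3 higher and 7 lower of 21, and around ITGAV −0.11, with 3 and 8 of 28. Over all genes tested, coding or not, 20.9% were called lower and 16.2% higher. The share called lower was above 20.9% around every member but ITGA3, so this was not particular to the members on chromosome 2. Around ITGA2, ITGA3 and ITGA5, 7 of 25, 17 of 87 and 36 of 161 were called lower. Around ITGB5 and ITGB8, 16 of 68 and 9 of 34 were. The fall of ITGA4 was larger than its neighbours' median, as was that of ITGA6. The part of a regional shift in these falls was not tested. Around ITGB3 the median was −0.02, with 30 higher and 32 lower of 148 genes, and around ITGB4 −0.16, with 18 and 32 of 108. Around ITGB1 it was 0.01, with 1 and 6 of 21.

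Genes that switch integrins on or off, at the beta tail or upstream of it, were called lower in 11 of 23 cases and higher in 1. These shares of 47.8% and 4.35% stand beside 20.9% and 16.2% of all genes tested. The median log2 fold change of the list was −0.15. Those that fell serve both directions. FERMT2 and FERMT1 encode kindlins, which activate integrins with talin. FERMT2 fell from 3979 and 3848 to 2387 and 2370.3, a log2 fold change of −0.72 ± 0.07 (SE; limma, adjusted p = 2.97e-04), and FERMT1 fell by 0.42. TLN2, the second talin gene, fell by 0.67 and RAP1B, the small GTPase that brings talin to the membrane, by 0.58. TLN1, the main talin, had a log2 fold change of −0.15 that did not pass (95% interval −0.35 to 0.05, adjusted p = 0.219). On the inhibitory side, ITGB1BP1, which competes with kindlin and talin for the ITGB1 tail, fell from 1817 and 1759 to 1023 and 1121, by 0.74 on the log2 scale (adjusted p = 5.31e-04). FLNA, the filamin that blocks talin binding, fell by 0.44. The largest falls were in TNS1, which encodes a tensin of fibrillar adhesions (−1.85 ± 0.08, from 3910.4 and 3917 to 1053 and 1121), TNS3 (−1.41) and KANK1, a talin binder at the rim of adhesions (−0.99). RASSF5 and KANK2 were called lower as well. The calls of FLNA and KANK2 were lost without parental replicate 2 (adjusted p = 0.0700 and 0.162) or resistant replicate 1 (0.0863 and 0.258), and that of FERMT1 without resistant replicate 2 (0.0586). Without trend and robust moderation the calls of FLNA (adjusted p = 0.125) and KANK2 (0.168) were lost.

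Among focal adhesion kinases, adaptors and actin linkers, 15 of 39 tested genes were called lower and 4 higher, with a median of −0.25. That is 38.5% lower and 10.3% higher, where 20.9% and 16.2% of all genes were. PTK2, the focal adhesion kinase, held 5822, 5779, 5899 and 5955, with a log2 fold change of 0.03 (95% interval −0.13 to 0.19; limma, adjusted p = 0.760). Its relative PTK2B rose from 213 and 301 to 626 and 695, by 1.38 ± 0.17 (adjusted p = 7.43e-04). NEDD9, a scaffold of the Cas family, rose by 0.92, from 1136 and 1292 to 2156 and 2435. DOCK1, an activator of RAC, rose by 0.60. It lies on the long arm of chromosome 10, where the coding genes within 5 Mb of it had a median of 0.43. PDLIM7 (−0.77), PDLIM5 (−0.65) and RSU1 (−0.59), which bind actin fibres or the ILK complex, had the largest falls. ACTN1, the crosslinker alpha-actinin, fell by 0.59, from 25771 and 25208 to 16591 and 17393. ILK, the scaffold that joins parvin and PINCH to beta tails, fell by 0.33, a call lost without parental replicate 2 (adjusted p = 0.0683) or resistant replicate 1 (0.158) and without trend and robust moderation (0.0975). ACTN4 was listed at 2.87 to 16.1 and not tested. SRC had a log2 fold change of −0.04 (95% interval −0.29 to 0.22, adjusted p = 0.835).

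**Figure D4:**
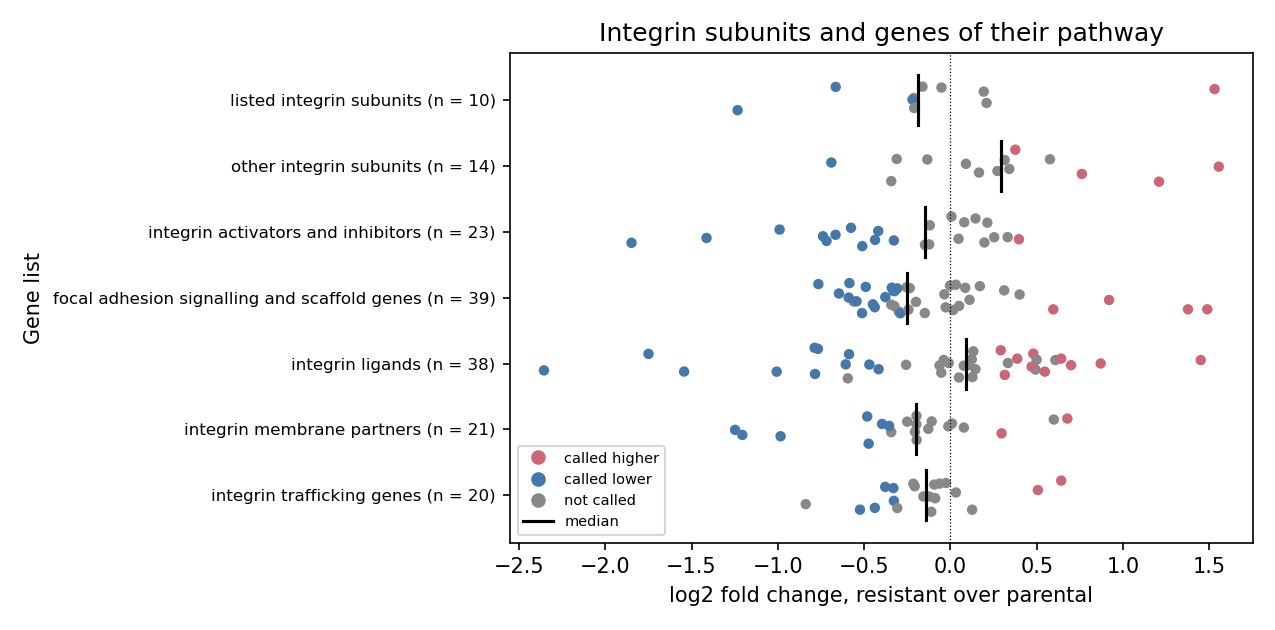
Log2 fold change of resistant over parental cells for each tested gene of 7 lists, coloured by call, with the median of each list as a black line (vertical scatter has no meaning). Medians run from −0.25 for the focal adhesion genes to 0.29 for the integrin subunits outside the listed members.

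Matrix and cell-surface ligands went both ways, with 10 of 38 tested genes called higher and 11 lower and a median of 0.09. The shares were 26.3% higher and 28.9% lower, against 16.2% and 20.9% of all genes tested. FN1, which encodes the fibronectin bound by the receptors of ITGA4 and ITGA5, fell from 6420.05 and 5522 to 4226 and 3715, by 0.59 on the log2 scale (limma, adjusted p = 2.60e-03). VCAM1, the cell-surface ligand of the ITGA4 receptor, was low at 37.3 to 48.8 and did not pass. For the laminin receptors, LAMB1, LAMB2 and LAMC1 rose by 0.39, 0.64 and 0.29, while the alpha chain gene LAMA1 fell by 1.54 and LAMA5 held 6202 and 10568.5 against 10319 and 14751, with overlap. Without resistant replicate 2 the calls of LAMB2 (adjusted p = 0.105) and LAMC1 (0.159) were lost, that of LAMC1 also without parental replicate 1 (0.106). LAMA5 passed without parental replicate 2 (0.99 on the log2 scale, adjusted p = 0.0195). For the collagen receptors, COL4A1 fell by 1.01 and COL6A3 by 0.78, and COL6A1 and COL6A2 rose by 0.32 and 0.55. The other collagen genes of the list did not pass. COL1A1 and COL1A2 had overlapping groups (0.05 and 0.08), and COL4A2 was lower in both resistant libraries (−0.59; limma, adjusted p = 0.0521). The COL6A1 call was lost without parental replicate 1 (adjusted p = 0.0811) or resistant replicate 2 (0.234). Without trend and robust moderation the calls of FN1 (0.0528), LAMB1 (0.0804), LAMB2 (0.101), LAMC1 (0.137) and COL6A1 (0.121) were lost. Among ligands of the ITGAV receptors, LTBP1, which holds latent transforming growth factor beta in the matrix, fell by 1.75, and TNC, the matrix glycoprotein tenascin C, by 2.36. CCN2 and CCN1, secreted matricellular proteins, rose by 0.87 and 0.48, and VTN, the vitronectin gene, was at 3.25 or less and not tested. ICAM1, the ligand of the ITGB2 integrins, rose from 1028 and 1215 to 2924 and 3195, by 1.45 ± 0.10 (adjusted p = 7.69e-05).

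Membrane partners of integrins were called lower in 7 of 21 cases (33.3%) and higher in 2 (9.52%), with a median of −0.20. Over all genes tested the shares were 20.9% and 16.2%. NRP1, a co-receptor for growth factors, fell by 1.25, the receptor tyrosine kinase gene MET by 1.21 and the syndecan gene SDC1 by 0.98. SDC4, the syndecan that acts with ITGA5 on fibronectin, rose from 2976 and 2847 to 4414 and 4911, by 0.68 ± 0.08 (SE; limma, adjusted p = 5.79e-04). SLC3A2, which binds beta tails, rose by 0.30, a call lost without any 1 of parental replicate 1 (adjusted p = 0.116), resistant replicate 1 (0.127) and resistant replicate 2 (0.0838), and without trend and robust moderation (0.119). CD151, the tetraspanin that binds the ITGA3 and ITGA6 receptors, had a log2 fold change of −0.25 with overlapping groups (95% interval −0.55 to 0.05, adjusted p = 0.168), and it passed without parental replicate 1 (−0.40, adjusted p = 0.0392). EGFR held 10605.5 to 12445 in all libraries with a log2 fold change of −0.01.

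Of 20 genes of integrin uptake and recycling, 5 were called lower and 2 higher, with a median of −0.14. The share called lower, 25%, was near the 20.9% of all genes tested. The share called higher was 10%, against 16.2%. ARF6, a GTPase of recycling at the membrane, fell by 0.52, the early endosome tether gene EEA1 by 0.44 and RAB4A, of the fast recycling route, by 0.38. The RAB4A call was lost with scaling by library totals (adjusted p = 0.0753) and without parental replicate 1 (0.0963), resistant replicate 1 (0.0820) or resistant replicate 2 (0.193). Without trend and robust moderation the calls of ARF6 (0.0677), EEA1 (0.0590) and RAB4A (0.0756) were lost. HAX1 rose by 0.64 and RAB11FIP1, an effector of the slow recycling route that couples RAB11 to its cargo, by 0.51 (limma, adjusted p = 7.82e-04 and 4.31e-03). SNX17, which keeps ITGB1 from being degraded, held 1273 to 1434 with overlapping groups (log2 fold change −0.03, adjusted p = 0.861).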

How the data were processed

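RNA-seq libraries were made from total RNA with a strand-specific Agilent kit, per the labels' protocols. The authors deposited 1 table with 1 signal column per library, in fragments per gene multiplied by a library factor and not divided by length. Tools named in the submitters' processing notes are HISAT2 2.1.0, Cufflinks 2.2.1, Cuffdiff, Trimmomatic 0.36 and SAMtools 1.2, with the build GRCh38.p10. For annotation release, scaling and strand setting the sources used here give nothing. Dividing by a step per library gave whole fragments within 0.05 for 95.7% to 96.1% of values of up to 20 fragments. Some values are fractions of a fragment, so no count-based test was used.

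Genes with a value of at least 10 in 2 libraries and a sum of at least 15 were kept. The log2(value + 1) scale was used for a fit with limma 3.58.1 under R 4.3.3, with trend and robust moderation and the group as the sole term, two-sided, with Benjamini-Hochberg adjustment over 16132 genes. The scale understates changes of low genes. Symbols came from a name table (57378 IDs), positions and exon lengths from GENCODE 29 (57881 IDs, GRCh38). Intervals cover the spread between libraries. The members and lists were chosen with earlier results of these data known. The text names all members, every tested subunit, and up to 3 called rises and 3 falls of each list, plus, chosen after their values were seen, other list genes with a stated role and the 5 Mb neighbourhoods. Some genes this rule selects are counted in their lists but not reported here by name.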

Additional observations from a re-analysis of the deposited data

How the results depend on the processing

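Of 16132 genes tested, 5991 were called, and 3686 without trend and robust moderation. Leaving out 1 library at a time gave 3528 to 5435, the lowest without resistant replicate 1, with the lone library of a group assumed to vary like the other group. Of the called genes, 43.7% were higher with the deposited scaling, 57.1% with library totals alone and 49.7% with TMM factors. Members called higher numbered 1, but 2 with library totals alone (ITGA5 added) and 1 to 3 with a library left out (3 without parental replicate 2). Members called lower numbered 3, and 2 with each library left out, ITGB1 being lost. ITGA4, ITGA6 and ITGB3 kept direction and call in all 12 alternatives. The sign of ITGB8 changed in 3 of 12, never with a call.

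With the replicate block, 8624 genes were called, 3 members were higher (ITGA3 and ITGA5 added) and 5 lower (ITGAV and ITGB5 added). The labels tie no number to a shared day, and same-numbered libraries deviated together at r = 0.265 across genes. The 2 count-based tests on recovered reads were not run, because the values include fractions of a fragment. Among the genes that the block also made pass were ITGAX, ITGAE (as lower) and the epithelial markers CDH1 and CLDN4. The spread between resistant replicates limits ITGB8.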
